A study of Mus musculus with 8 samples.

Results

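MicroRNA genes listed in the Ribo-seq tables of mouse liver are described here, from animals on a high-fat diet with or without betaine. All symbols of microRNA genes with an RPKM (reads scaled to gene length and to the size of the library) above 0 in at least 2 of the 4 Ribo-seq libraries were taken. This rule gave 99 members out of 1224 microRNA symbols, among 25033 symbols listed. Of these members, 96 were hairpin genes and 3 were long host transcripts of microRNAs (Mir17hg, Mir22hg and Mir99ahg). Because the measured RPKM values chose the members, being above 0 is no finding, and members are described by values that the choice did not fix.

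C57BL/6 mice were used, which the study's methods give as male. Both groups received a diet with 45% of its energy from fat, from week 8, and livers were taken at an age of 25 weeks. The sources differ on how long the diet lasted, since the labels also give 25 weeks on the diet and the study's methods a shorter time. The HF group had this diet alone, and the HB group also had 2% w/v betaine, a methyl donor, which the study's methods place in the water. Each group had 2 libraries per assay, here called HF1, HF2, HB1 and HB2, so that 8 libraries were used in all. The study's methods give 2 mice per group with body weights nearest the group mean, while the labels also speak of pooled preparations, so p-values measure the spread between these libraries, which may be partly technical. Ribo-seq sequences the mRNA fragments that a ribosome shields from RNase: lysates were digested with RNase I, spun through sucrose, depleted of ribosomal RNA and cut from a gel at the size of a ribosome footprint. RNA-seq libraries were made from polyA+ RNA.

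A microRNA is cut from a hairpin transcript by Drosha with Dgcr8 in the nucleus and by Dicer1 in the cytoplasm, and one strand is loaded into an Argonaute protein. Its seed, bases 2 to 8, pairs with target mRNAs, which are then repressed or degraded. In liver, miR-122 is the classic hepatocyte microRNA and is known for its part in lipid metabolism, and the families of miR-30, let-7, miR-192 and miR-107 are also well known there. The tables hold 1 value per hairpin gene, so neither the arm that was read nor the length of the reads is known.

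The sequences below belong to several members described in the results, grouped by seed. They are mature RNAs from RefSeq (GRCm38.p6), where 88 of the 96 hairpin members had a mature sequence, and capitals mark the seed. Mature lengths of the members ran from 19 to 26 bases with a median of 22. The first set shares the miR-30 seed. By mean RPKM Mir30a ranked 2, Mir30e 6 and Mir30c-1 7, while Mir30c-2, which also carries miR-30c-5p, held few reads.
miR-30a-5p: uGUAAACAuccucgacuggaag
miR-30c-5p: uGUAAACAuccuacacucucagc
miR-30e-5p: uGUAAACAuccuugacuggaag
The second set is the let-7 group, of which 9 members shared a seed.
let-7a-5p: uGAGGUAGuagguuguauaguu
let-7b-5p: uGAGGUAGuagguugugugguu
let-7c-5p: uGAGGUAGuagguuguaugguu
let-7f-5p: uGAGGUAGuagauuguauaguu
let-7g-5p: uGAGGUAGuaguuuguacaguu
The next set holds the pairs miR-222 with miR-221 and miR-107 with miR-103, whose members share a seed but differed in level.
miR-222-3p: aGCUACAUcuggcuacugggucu
miR-221-3p: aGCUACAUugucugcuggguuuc
miR-107-3p: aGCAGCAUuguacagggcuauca
miR-103-3p: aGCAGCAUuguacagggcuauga
The last set holds other abundant liver hairpins and the microRNAs of blood cells.
miR-192-5p: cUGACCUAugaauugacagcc
miR-361-5p: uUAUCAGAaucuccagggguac
miR-425-5p: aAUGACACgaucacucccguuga
miR-191-5p: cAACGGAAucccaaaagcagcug
miR-451a: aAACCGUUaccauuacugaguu
miR-223-3p: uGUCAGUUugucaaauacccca
miR-142a-3p: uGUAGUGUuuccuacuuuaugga
In all, 16 seeds were shared by 2 or more members, and 34 members carried such a seed. Identical mature sequences are also common: 19 members share one with another gene (let-7c-5p lies in both Mirlet7c-1 and Mirlet7c-2, for example), so reads of such genes may have been split or assigned to either copy. The median GC content of the members' mature sequences was 47.6%, against 52.4% for those of 924 other microRNA genes.

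The precision of these values is set by small read numbers. RPKM values of the hairpins turned back into whole reads with library totals of 387980 (HF1), 1056546 (HF2), 257086 (HB1) and 141890 (HB2), and the length behind each value was the GENCODE gene length for 94 of 96 hairpins. The HB libraries were thus the shallower ones. Summed over the 4 libraries, the median member held 20 reads, while 28 members had more than 3 reads in every library, and 22 had at most 3 in every one. A hairpin of 80 bases needs an RPKM of 96.7 in HF1, 35.5 in HF2, 146 in HB1 and 264 in HB2 to stand for 3 reads. Intervals given below cover counting error only. Hepatocyte markers were present in all libraries (7 of 7 above 0, with a summed Ribo-seq RPKM of 33523 to 39697 in HF and 37051 to 42965 in HB), whereas 3 of 3 adipocyte markers were at 0 in every Ribo-seq library. Of 4 bile duct markers, Krt7 and Epcam were at 0, Krt19 had 1 read in HF2, and Sox9 had 8, 2, 1 and 0 reads.

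At the edge of the rule, the lowest hairpins inside it, Mir30b, Mir532 and Mir700, had 1 read in each HF library and 0 in both HB libraries. The highest symbol outside it, Mir28a, had 0 in 3 libraries and was read in HB2 only. Above 0 in a single library were 58 symbols, of which 34 had 1 read there, and 1067 symbols were at 0 throughout. Of the members, 52 were above 0 in all 4 libraries, 23 in 3 and 24 in 2. Of the last, 7 were seen in both HF libraries alone and 0 in both HB libraries alone.

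Mir122 dominated the hairpins in every library. Its RPKM was 68849 in HF1, 132980 in HF2, 418561 in HB1 and 778452 in HB2, from 1763, 9273, 7102 and 7290 reads. Among all features it ranked 3 in HF1, behind the small nucleolar RNA Snord14d and the spliceosomal Rnu6, 2 in HF2, and 1 in both HB libraries. It made up 70.6%, 62.1%, 77.2% and 86.4% of the summed hairpin RPKM in the same order of libraries. The next hairpin, Mir30a, was 10.1-fold lower in HF1, 4.65-fold lower in HF2, 16.2-fold lower in HB1 and 25.9-fold lower in HB2. With Mir122 included, the 5 highest hairpins held 84.7% to 94.5% of the summed RPKM and the 10 highest held 91.3% to 96.5%. Without Mir122, Mir30a held 23.8%, 35.2%, 20.9% and 24.5% of the RPKM of the others.

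As a share of library reads, Mir122 took 0.454% in HF1 (95% Clopper-Pearson interval 0.433% to 0.476%), 0.878% in HF2 (0.860% to 0.896%), 2.76% in HB1 (2.70% to 2.83%) and 5.14% in HB2 (5.02% to 5.25%). Both HB libraries stood above both HF libraries, and the group means of 0.666% ± 0.299 (SD, n = 2) and 3.95% ± 1.68 (SD, n = 2) differed 5.93-fold (exact permutation test, two-sided, p = 0.333, the smallest that 2 against 2 allows). The other 95 hairpins together took 0.236% and 0.664% in HF and 1.03% and 1.01% in HB, a ratio of 2.27 (exact permutation p = 0.333). All hairpins together took 0.691%, 1.54%, 3.79% and 6.15%. Library depth moved with these shares: the shallowest library, HB2, had the highest share, whereas within HF the deeper library had the higher one. Between the groups, depth and treatment cannot be told apart.

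**Figure D1:**
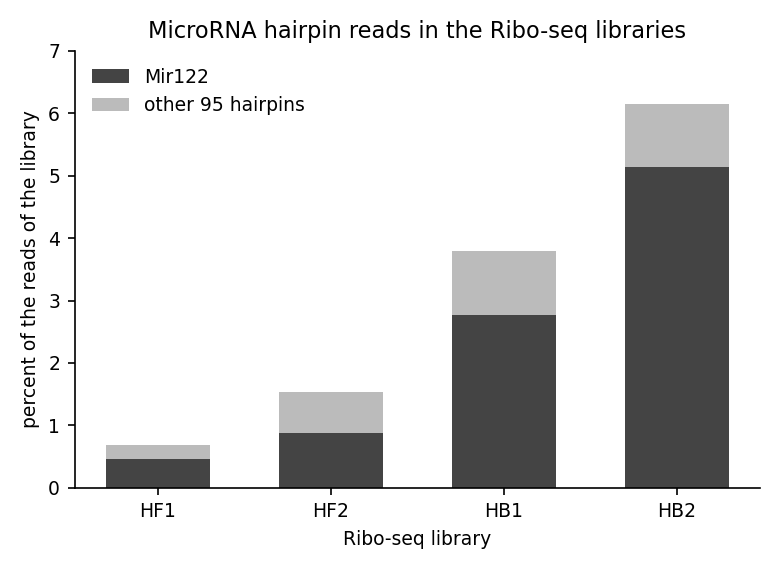
Stacked bars show the percent of each Ribo-seq library's reads that fell on Mir122 (dark) and on the other 95 hairpin members (light), 1 bar per library. Both HB bars stand above both HF bars, and Mir122 fills most of every bar.

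A Ribo-seq feature was called where its log2 fold change was beyond 1 and its unadjusted p was under 0.05. In the limma fit across all 11190 features tested, Mir122 had a log2 fold change of 2.58 (SE 1.23, HB against HF, on the log2(RPKM + 1) scale) and an unadjusted p of 0.0916 (Benjamini-Hochberg adjusted p = 0.556), so it was not called. Its call changed between fits: without the mean trend in the variance p was 0.0114, with a minimum mean RPKM of 5 it was 0.0104, and voom on the recovered reads gave a log2 fold change of 2.52 with an adjusted p of 4.13e-22. With 2 libraries per group, so small a p rests largely on the spread of other features, as do the voom values below. Without HB1 p was 0.0491, with a single HB library that is assumed to vary like the HF libraries. In the other fits p was 0.0589 or higher. In every fit the sign was positive, and the log2 fold change ran from 1.70 (RPKM rescaled to a common sum) to 3.05 (without HF2).

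Among the 28 members with more than 3 reads in every library, 27 were compared with Mir122 after each was centred over the 4 libraries on log2(RPKM + 1). Closest in pattern were Mirlet7c-2 (mean absolute difference 0.15), Mir222 (0.17) and Mirlet7b (0.24). Farthest were Mir677 (1.56), Mir1983 (1.30) and Mir21a (1.21). These are descriptions over 4 libraries that share depth and group.

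Below Mir122, Mir30a was the second hairpin in every library. It lies at chr1:23272269-23272339 (GRCm38, plus strand) outside other genes, and its RPKM was 6825, 28594, 25859 and 30077 in HF1, HF2, HB1 and HB2. HF1 alone was low and HF2 lay between the HB values, so the groups overlapped (log2 fold change 1.00, SE 0.84, limma adjusted p = 0.670). Without HF1 the log2 fold change was -0.04. Mir30d (1949, 5944, 9203 and 10314), Mir30e (1681, 5370, 7061 and 4750) and Mir30c-1 (811, 2201, 6425 and 5226) followed. Only Mir30c-1, in an intron of Nfyc at chr4:120769534-120769622 (minus strand), was called higher (log2 fold change 2.12, SE 0.57). Its neighbour Mir30e, in the same gene, was not called. Of the 6 miR-30 members 1 was called higher and 1 lower (Mir30b, with 2 reads in all), against 1.58% and 7.86% of all features tested. Their summed RPKM was 1.85-fold higher in HB as a ratio of means. Only HF1 was low, at 11354, against 42131 in HF2 and 48547 and 50618 in HB.

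Mir192, which together with Mir194-2 forms a cluster with a gap of 115 bp on chromosome 19, ranked 3 by the mean of the libraries. Its RPKM was 2433, 10826, 19012 and 18530, with both HB libraries above both HF libraries (log2 fold change 1.87, SE 0.81, limma adjusted p = 0.528, not called; voom adjusted p = 5.35e-06). Mir194-2 stood far below its neighbour, at 0.0143 to 0.0376 of its RPKM. A like imbalance held for Mir221 and Mir222, 504 bp apart on chromosome X: Mir222 had an RPKM of 1305, 2696, 11029 and 14363, and Mir221 reached at most 0.0416 of it. Mir222 was called higher (log2 fold change 2.75, SE 0.50), and its values did not overlap between groups. For the pair Mir191 and Mir425, 384 bp apart on chromosome 9, the ratio ran from 0.522 to 2.07.

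**Figure D2:**
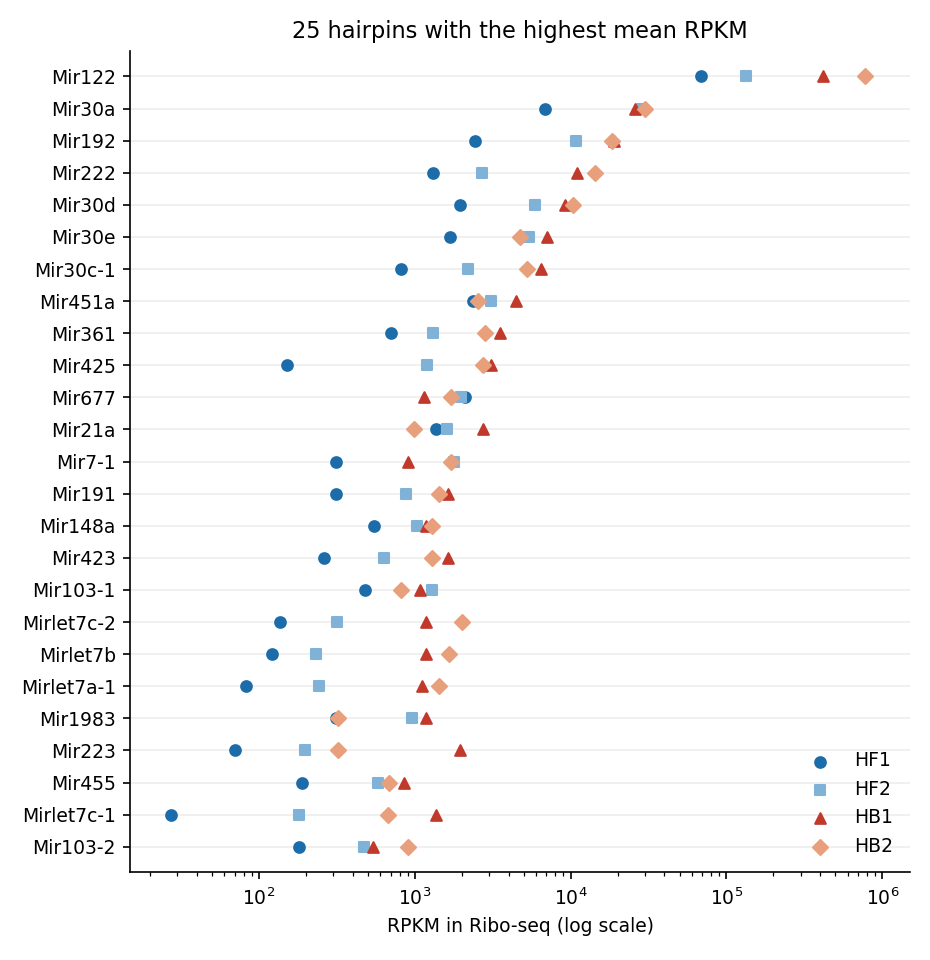
RPKM of the 25 hairpins with the highest mean, on a log axis, with 1 point per Ribo-seq library (HF1 and HF2 blue, HB1 and HB2 red). Mir122 stands apart at the top, the let-7 genes show both HB points to the right of both HF points, and Mir30a, Mir451a and Mir21a show overlapping groups.

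HB was then compared with HF across the members by the same rule for calls. Of 98 members tested, 28 (28.6%) were called higher in HB, while 1.58% of all features tested were, and 6 (6.12%) were called lower, while 7.86% of all features were. The 6 lower members were at 0 in both HB libraries and so met the rule through HF alone, which fixed their direction. The median log2 fold change was 1.40 over these members and -0.43 over all features, so changes of the members are read against that shift. Values of both HB libraries lay above both HF libraries for 43 members (9.07% of all features) and below for 9 (33.2% of all features), of which 7 were seen in HF alone, so that the rule fixed their order and nothing is read from this share. All 28 higher calls were among the 43.

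At a Benjamini-Hochberg adjusted p under 0.05, limma called 0 members, with 34 at an unadjusted p under 0.05, and 0 of all features, with 1122 at an unadjusted p under 0.05. The adjusted p was 0.376 for Mir107 and Mir3064 and 0.493 for the other called members, and the smallest of all features was 0.108. In voom on the recovered reads 15 members passed an adjusted p of 0.05, of 89 features in all, and 39 members were called higher (3.9% of all features) and 2 lower (6.08% of all features), Mir690 and Mir22hg. All 28 members called higher in limma were called higher by voom too. Leaving out HF1, the library with the lowest hairpin share, gave 12 members called higher (0.551% of all features in that fit) and 6 lower (3.86%), with a single HF library assumed to vary like the HB libraries. Rescaling each library to a common RPKM sum, of which Mir122 is a large part, gave 10 higher (0.36% of all features in that fit) and 8 lower (24.2% of all features).

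Restricting the members to the 28 with more than 3 reads in every library gave 11 called higher (2.28% of features with such reads) and 0 lower (2.58% of such features) in limma. Of these 28, 27 had a positive log2 fold change and 19 had both HB values above both HF values (13.6% of features with such reads). The exception in sign was Mir677 (2115, 1990, 1147 and 1717), which overlaps an annotated small nucleolar or small Cajal body RNA, as do 4 other members, so that its reads cannot be told apart from those of that gene.

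**Figure D3:**
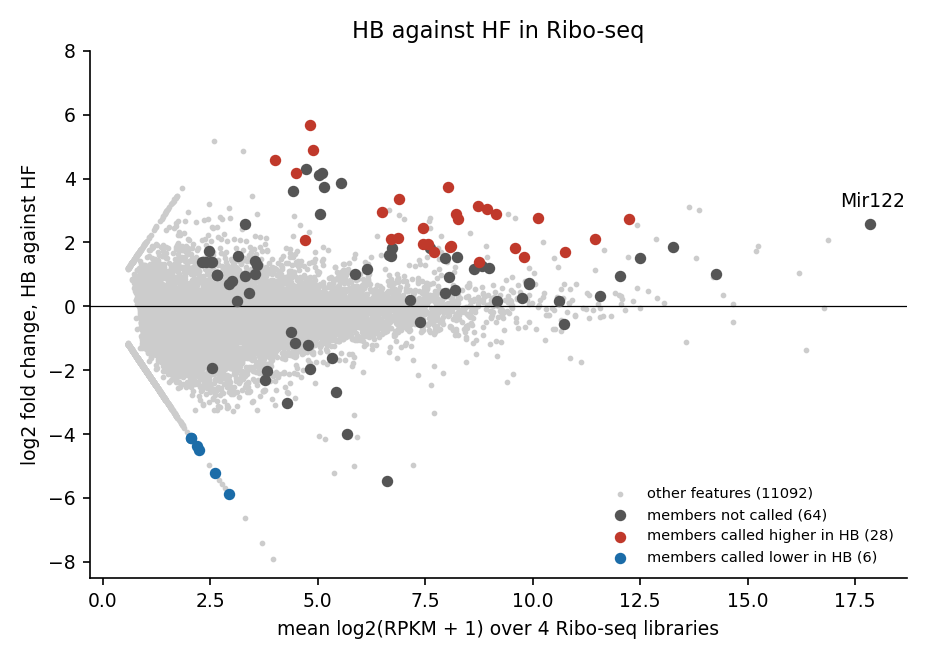
Each point is a feature of the Ribo-seq fit, with its mean log2(RPKM + 1) on the x axis and its log2 fold change of HB against HF on the y axis. The 28 members called higher in HB (red) spread over the range of means, the 6 called lower (blue) lie at low means, and Mir122 is the feature with the highest mean.

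The let-7 genes, which are known for restraining growth and for targeting insulin pathway mRNAs, gave the most calls of any family. Of 10 let-7 members, 6 were called higher and 0 lower, and in 7 both HB values exceeded both HF values, against 1.58%, 7.86% and 9.07% of all features. Mirlet7b had an RPKM of 121, 234, 1190 and 1658 in HF1, HF2, HB1 and HB2 (log2 fold change 3.05, SE 0.42). Both HB values were several times both HF values. Mirlet7c-2, which lies with Mirlet7b in exons of Lncppara on chromosome 15 and 621 bp from it, had 136, 319, 1187 and 2003 (log2 fold change 2.88, SE 0.53). Mirlet7a-1 had 82.3, 242, 1117 and 1425 (log2 fold change 3.15, SE 0.56). The calls of Mirlet7g, Mirlet7c-1 and Mirlet7f-1 went the same way. Mirlet7f-2, which carries the same let-7f-5p as Mirlet7f-1, had 155.3, 456, 609 and 594 and was not called (limma adjusted p = 0.555), although both HB values exceeded both HF values. Summed over the family, RPKM was 781, 1991, 6775 and 7556, a ratio of 5.17.

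Mir107, in an intron of Pank1 at chr19:34820687-34820773 (minus strand), had the smallest p of any member in limma. Its RPKM was 29.6, 43.5, 358 and 405 (log2 fold change 3.37, SE 0.31, adjusted p = 0.376), from 1, 4, 8 and 5 reads. Its relatives with the same seed, in introns of Pank3 and Pank2, were not called. Mir103-1 had 480, 1288, 1086 and 820, overlapping between groups (limma adjusted p = 0.865), and Mir103-2 had 180, 473, 543 and 901 (limma adjusted p = 0.540). By RPKM, Mir103-1 exceeded Mir107 in every library.

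Among the other abundant hairpins, Mir361 in an intron of Chm had an RPKM of 700, 1312, 3501 and 2819 (log2 fold change 1.71, SE 0.42). Mir425 had 152, 1191, 3066 and 2736 (log2 fold change 2.76, SE 0.99), and Mir191 had 313, 883, 1629 and 1429 (log2 fold change 1.53, SE 0.55). In all of these both HB libraries were above both HF libraries, with HF1 the lowest. Mir423 (log2 fold change 1.84), Mir182 (1.40) and Mir320 (2.90) were called higher as well. Not called were Mir21a (1373, 1615, 2748 and 996), a microRNA linked with injury and growth, Mir148a (547, 1033, 1179 and 1281), Mir7-1 (310, 1797, 900 and 1697) and Mir34a (25.3, 139, 76.3 and 415).

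**Figure D4:**
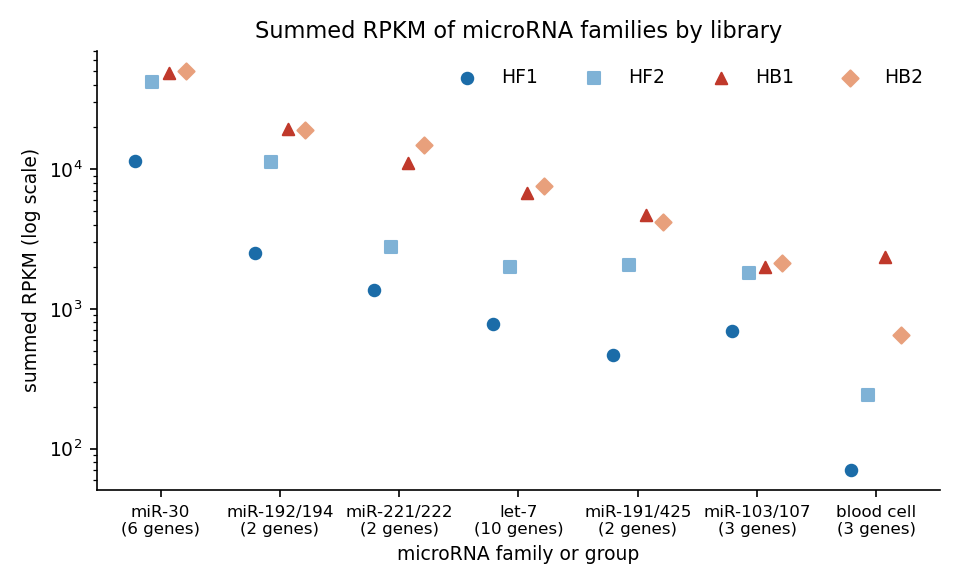
Summed RPKM of microRNA families, with blood cell microRNAs at the right, on a log axis, 1 point per Ribo-seq library. The blood cell group holds Mir142, Mir155 and Mir223 but leaves out Mir451a, which was not called. HF1 is lowest in each group shown, and the gap between HF2 and the HB libraries is wide for the let-7 and miR-222 families and narrow for the miR-30 and miR-107 families.

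Relative abundance among the hairpins other than Mir122 also differed. Mir30a held 20.5%, 30.6%, 17.8% and 21.1% of their reads, and Mir222 held 4.36%, 3.21%, 8.45% and 11.2%. Mir451a fell within 1.81% to 7.20% and Mir677 within 0.868% to 6.98%, each with its highest share in HF1. Summed over the 6 miR-30 members, RPKM was 11354, 42131, 48547 and 50618. Summed over Mir221 and Mir222, it was 1359, 2785, 11029 and 14882. Only HF1 was low for miR-30, while both HF libraries were low for Mir222 and, as given above, for let-7.

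MicroRNAs of blood cells were taken from a list of other cell types, in which the lymphocyte Mir150 and the erythroid Mir144 were listed at 0 in all 4 libraries. Mir451a, the erythroid microRNA that is cut by Ago2 in place of Dicer1, had an RPKM of 2363, 3102, 4484 and 2545 and was not called (log2 fold change 0.32, SE 0.43, limma adjusted p = 0.796). Mir223, of myeloid cells, had 70.3, 198, 1945 and 320 and was called higher (log2 fold change 2.73, SE 0.99), with HB1 far above the other libraries. Mir142 (0, 1, 3 and 2 reads) and Mir155 (0, 2, 4 and 1 reads) were called higher too, although both rest on few reads. Mir345 and Mir339 also had at most 3 reads in each HF library. The summed Ribo-seq RPKM of 6 Kupffer cell and macrophage markers was 112 to 120 in HF and 75.6 to 159 in HB (6 of 6 above 0), that of 3 lymphocyte markers was 1.80 to 4.22 in HF and 1.34 to 2.96 in HB (Cd79a at 0), and that of 5 erythroid markers was 617 to 1109 in HF and 381 to 2559 in HB. Both Mir223 and the macrophage and erythroid sums were highest in HB1, and the part of blood cells in these values was not tested. In RNA-seq the macrophage sum was higher in both HB libraries, at 125 and 113 against 96.2 and 106. So was the erythroid sum, at 738 and 2249 against 675 and 523. The lymphocyte sum was lower in both HB libraries, at 2.40 and 2.32 against 4.52 and 5.92. In the macrophage and in the erythroid list 1 gene was called in RNA-seq, both higher, while 2.3% of all features were. These were Lyz2, a myeloid lysozyme (5.19, 11.5, 38.3 and 35.6), and Hbb-bs, a globin (75.2, 67.9, 265 and 643). Without Lyz2 the macrophage sums were 91.0 and 94.5 in HF and 86.4 and 77.4 in HB, and without Hbb-bs the erythroid sums were 599.7 and 455 in HF and 474 and 1606 in HB. In Ribo-seq 1 of the 6 macrophage markers, Cd68, was called lower (12.7, 6.99, 0 and 0, from 4, 6, 0 and 0 reads). Of the 5 erythroid markers 0 were called, while 1.58% of all features were called higher and 7.86% lower. In bulk tissue, fewer cells of a type and less RNA per cell cannot be told apart. The endothelial Mir126a had 1 read in HF1 and 1 in HB2. Endothelial markers had a summed Ribo-seq RPKM of 129.6 and 110.1 in HF and 109.6 and 58.9 in HB. Of these 5 markers, 0 were called higher and Stab2 and Pecam1 lower, Pecam1 from 16, 26, 2 and 1 reads. In RNA-seq their summed RPKM was 54.2 and 64.9 in HF and 53.7 and 63.4 in HB, with 0 of 5 called. The neural Mir124a and Mir9 genes were listed at 0. Of the mesenchymal microRNAs, Mir145a had 3, 31, 5 and 3 reads, whereas Mir143, both Mir199a genes and Mir214 were listed at 0. The summed RPKM of 5 stellate cell and fibroblast markers, of which 0 were called in either assay, was 122, 114, 89.8 and 84.0 in Ribo-seq and 33.1, 31.5, 70.7 and 42.0 in RNA-seq.

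The 6 members called lower in HB were Mir3064, Mir181b-2, Mir152, Mir700, Mir532 and Mir30b. Each had 0 reads in both HB libraries and 2 to 5 reads over the HF libraries together, which is too few to give a fold. In voom their log2 fold changes lay between -0.73 and 0.24, and none was called. Mir690, in an intron of Fgf12, was not called in limma, with 31, 67, 6 and 0 reads (RPKM 733, 582, 214 and 0; log2 fold change -5.48, SE 2.50, limma adjusted p = 0.548), but was called lower in voom (log2 fold change -2.80). Next to Mir677, it had the most reads among the 9 members whose HB values were both below both HF values.

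Other small RNAs of the same libraries are given beside these values, because a gel slice can hold them too. Summed over 129 small nucleolar, small Cajal body and other small RNA genes, RPKM was 554087 in HF1, 598949 in HF2, 675270 in HB1 and 1298010 in HB2, a ratio of 1.71. The ratio was 4.63 for the hairpins. By class, the Snord genes had 405711, 393401, 421838 and 1071082, so that HB2 alone stood apart, while the Snora genes (14950, 19261, 16719 and 22050) overlapped between groups. The Scarna genes had 1111, 1211, 3388 and 6198, a ratio of 4.13. Rnu6 and its like (132314, 185076, 233325 and 198679) had a ratio of 1.36. The exact permutation p was 0.333 for each of these but Snora (p = 0.667). Carry-over of free small RNA into the libraries was not measured, and its part in the microRNA results was not tested.

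**Figure D5:**
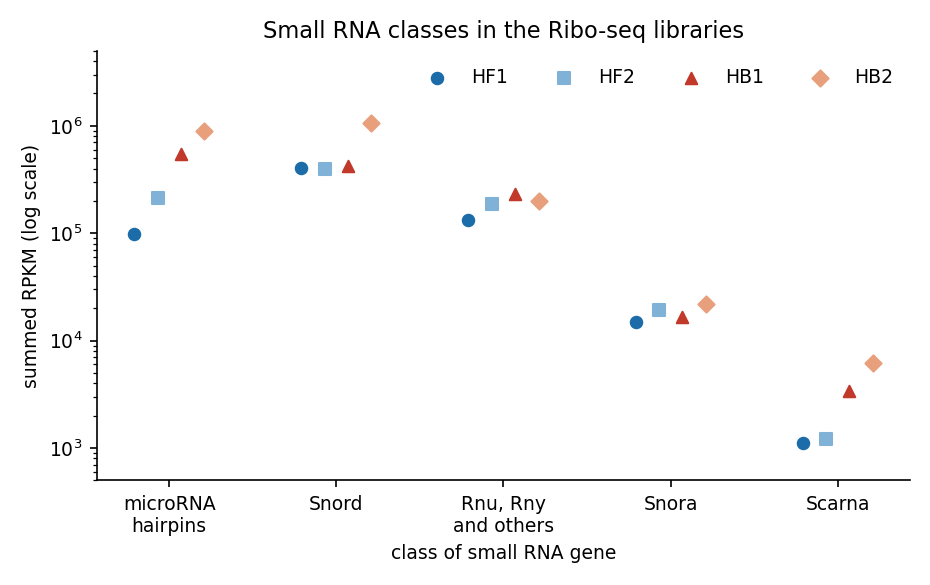
Summed RPKM by class of small RNA gene on a log axis, 1 point per Ribo-seq library. Both HB points lie above both HF points for the hairpins, the Scarna genes and Rnu6 and its like. For the Snord genes they do too, but HB1 is close to the HF points and HB2 stands apart. The Snora genes show overlapping groups.

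In RNA-seq, 96 of 96 hairpin members were listed at 0 in all 4 libraries, and only the 3 long transcripts had values. Mature microRNAs carry no polyA tail. Mir22hg, the host transcript of miR-22, was lower in HB, with an RPKM of 74.8 and 59.0 in HF and 17.6 and 13.6 in HB (log2 fold change -2.04, SE 0.26, limma adjusted p = 0.00523; RNA-seq calls use an unadjusted p under 0.001, and 6.56% of all features were called lower). Its Ribo-seq RPKM was 7.30, 15.0, 0 and 7.98 and was not called. Mir17hg, which carries the miR-17 cluster, went the other way in the Ribo-seq tables, with 6.61, 20.2, 71.5 and 39.2 (log2 fold change 2.09, SE 0.64, called higher), whereas its RNA-seq RPKM of 2.97, 3.62, 1.56 and 1.49 was not called (log2 fold change -0.76, limma adjusted p = 0.0406). The difference between the assays was not tested.

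Most hairpins lie within other genes: 37 in an intron on the same strand, of which 33 in protein-coding genes, 33 in an exon on the same strand, 5 on the opposite strand of a gene and 21 outside other genes. A list of 27 genes known to host microRNAs was tested beside them, which leaves out many hosts of members and holds some genes that host no member. Of 24 tested in Ribo-seq, 1 was called higher (Mir17hg, itself a member) and 3 lower (Pank2, Egfl7 and Evl), against 1.58% and 7.86% of all features, with a median log2 fold change of -0.69 against -0.43. Evl had 3.54, 1.73, 0 and 0, while Mir342 within it had 26.03, 38.2, 78.6 and 783 and was called higher, with HB2 far above the rest. Both rest on few reads: Evl had 3, 4, 0 and 0, and Mir342 had 5 over the HF libraries and 13 over the HB libraries. Pank1, host of Mir107, had 51.8, 71.7, 42.3 and 44.1 and was not called. In RNA-seq 2 of 24 were called lower, Mir22hg and Dalrd3 (69.7, 60.8, 22.9 and 30.0), and 0 higher, while 6.56% of all features were called lower and 2.3% higher.

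Genes of microRNA production and action were taken as a list of 37 symbols, in which Tut4, Tut7 and Tent2 also stand under older symbols that only the RNA-seq tables use. In Ribo-seq 32 were tested, of which 0 were called higher and 2 lower, while 1.58% and 7.86% of all features were. The lower calls were Ddx17, a helicase of the Drosha complex (40.0, 27.8, 17.9 and 10.3), and Eif4enif1, which binds the cap-binding translation factor. Eif4enif1 had 4.88, 4.61, 0 and 0, from 7, 18, 0 and 0 reads. The median log2 fold change of the 32 was -0.42, beside -0.43 for all features. In RNA-seq the median of the 29 tested was -0.36, against -0.19 for all features. Dicer1 had 8.90, 12.3, 3.16 and 3.58, with both HB values below both HF values, but was not called (limma adjusted p = 0.498). Ago2, the slicing Argonaute, had 12.2, 8.01, 8.23 and 4.39 and overlapped between groups. In RNA-seq 1 of 29 was called higher, Ran, the small GTPase that works with Xpo5 in export of the precursor (15.5, 11.9, 49.6 and 31.4), and 3 were called lower: Srrt, which links capped transcripts to Drosha (57.1, 46.5, 13.9 and 19.3), Tnrc6a, the Argonaute partner that recruits deadenylases (19.4, 23.6, 5.76 and 7.53), and Adar, an RNA editor (11.8, 10.4, 3.75 and 4.87). Of all features in RNA-seq, 2.3% were called higher and 6.56% lower.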

How the data were processed

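RPKM values per gene symbol for the 4 Ribo-seq and 4 RNA-seq libraries were used. The authors mapped clean reads to mm10 with FANSe2, normalised to RPKM and deposited the RPKM tables without read counts, and the submitters' processing notes also name edgeR. Strand use and treatment of reads with several hits are not given in the sources used here. Since the values are RPKM, log2(RPKM + 1) was tested in limma 3.58.1 (R 4.3.3) with a mean trend, over features with a mean RPKM of at least 1 in the assay, 11190 in Ribo-seq and 10687 in RNA-seq. Calls follow the study's thresholds. On simulated Ribo-seq data 97.5% of 200 features changed by 2 on the log2 scale were called the right way, and 3.81% of unchanged ones were called. The changed features were drawn from those with the most reads, with a small fixed spread between replicates. These shares therefore do not tell how often a change in a member with few reads is found. Whole reads were recovered from RPKM with 1 length per feature (tolerance 0.02 reads) for 12487 of 12488 values above 0 in HF1, 13598 of 13599 in HF2, 10114 of 10115 in HB1 and 8540 of 8541 in HB2. For features other than microRNAs the length nearest the annotated one was taken, and recovered reads summed to 102% to 104% of the totals, so their classes are given by RPKM. In a test on simulated reads, 600 of 600 features were recovered exactly, but the true length was given, so the choice of length was not tested. Positions come from GENCODE M21 (GRCm38, the build of mm10). Alternatives were another pseudocount, filter, scaling and variance model, a replicate block, leaving out each library and, added after seeing the data, voom on recovered reads, members over 3 reads and members apart from small nucleolar RNAs. Named members are Mir122, the 12 highest, up to 10 calls per direction, up to 15 with over 3 reads in every library and a liver list. The members and lists were chosen with earlier results of these data known. A control group on a standard diet is not analysed here. Some sequences are not reported here.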

Additional observations from a re-analysis of the deposited data

How the results depend on the processing

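Depth and group size limit these results: 22 members had at most 3 reads in every library, and groups of 2 allow an exact permutation p of 0.333 at best. Members called higher in HB numbered 28, and 10 after rescaling to a common RPKM sum, 47 with a replicate block, 0 at an adjusted p under 0.05 and 11 among members with over 3 reads everywhere; leaving out 1 library gave 12 to 35, the low end without HF1. Members called lower numbered 6, and 2 in voom, 0 at an adjusted p under 0.05 and 0 with over 3 reads everywhere; leaving out 1 library gave 6 to 16, the high end without HB1. Of the production genes in Ribo-seq, 2 were called lower, and 1 with a mean RPKM of at least 5, 7 with a common sum, 1 with a common median and 0 at an adjusted p under 0.05 (1 to 6 without 1 library); those called higher were 0, and 0 to 1 without 1 library. In RNA-seq the higher calls among them were 1, and 0 without a filter, 2 with a common median and 2 at an adjusted p under 0.05 (0 to 2 without 1 library), and the lower calls 3, and 5 with a replicate block and 6 at an adjusted p under 0.05 (1 to 3 without 1 library). The Mir122 share in HF was 66.3% and 73.8% without Mir30a. The cause was not tested in each case but the smaller set of members. With a common sum 0.36% of all Ribo-seq features were called higher and 24.2% lower, so the 7 production genes are read against that share. Shares for voom, for features with over 3 reads and for the fit without HF1 are given above. The other settings have no share of all features here, and nothing is read from their counts.

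Same-numbered libraries did not vary together (correlation of deviations -0.01 in Ribo-seq and -0.10 in RNA-seq), so the replicate numbers are names, and the block with 47 higher and 9 lower calls is not a pairing.

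Some signs turned. With a common sum these were Mir451a (-0.56), Mir21a (-0.72), Mir7-1 (-0.15), Mir148a (-0.17) and Mir103-1 (-0.61). In voom they were Mir152, Mir700, Mir532 and Mir30b (0.24 each), Mir378a (0.27) and Mir30c-2 (1.20). Leaving out 1 library each, log2 fold changes ran from -0.036 to 2.03 for Mir30a, -0.54 to 1.99 for Mir7-1, -0.45 to 0.97 for Mir103-1, -0.16 to 2.01 for Mir194-2 and -0.73 to 6.50 for Mir101a, with the low end without HF1. They ran from -0.089 to 0.73 for Mir451a and -0.58 to 0.88 for Mir21a, with the low end without HB1. They ran from -6.77 to 1.43 for Mir378a and from -1.72 to 4.50 for Mirlet7a-2, with the low end of Mirlet7a-2 and the high end of Mir378a without HB2, and from -4.79 to 3.19 for Mir30c-2, which has at most 3 reads a library. Over the named members and settings, 431 fold changes kept sign and call, 30 gained a call, 32 lost one and 23 turned.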
